A study of Mus musculus with 6 samples.

Results

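The nuclear respiratory chain subunits are the protein-coding genes of the nucleus whose products build complexes I to IV of the mitochondrial inner membrane, cytochrome *c* and the ATP synthase. Members were taken by gene symbol (*Ndufa*, *Ndufb*, *Ndufc*, *Ndufs*, *Ndufv*, *Uqcr*, *Cox4* to *Cox8*, *Atp5*, *Sdha* to *Sdhd*, *Cyc1* and *Cycs*), and the assembly factors named *Ndufaf* were left out. This gave 85 of the 26579 rows of the count matrix, and 84 of the 15102 rows tested. By complex, 36 members belong to complex I, 4 to complex II, 9 to complex III, 1 is cytochrome *c*, 18 belong to complex IV and 17 to the ATP synthase. *Cox8c*, *Cox7b2* and an additional identifier of *Atp5o* (ENSMUSG00000116933) are annotated but have no row. *Cox4i2* was the only member under the filter on low counts.

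The skin came from the dorsal neck of female mice at postnatal day 33, with 3 wild type mice (WT1 to WT3) and 3 YAP2-5SA-∆C littermates (TG1 to TG3). Skin of these groups is called WT and TG skin. YAP2-5SA-∆C mice carry an active form of the transcriptional co-factor YAP in basal keratinocytes of the epidermis. RNA was extracted from whole punch biopsies, so that each library also holds RNA of dermis, hair follicles, fat, vessels and underlying muscle beside the epidermis. Each library is 1 mouse, and p-values measure the spread between these mice.

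The respiratory chain passes electrons from NADH and succinate through complexes I, II and III and cytochrome *c* to complex IV, where oxygen is reduced. The proton gradient built on the way drives the ATP synthase. Nearly all subunits are encoded in the nucleus, a small set is encoded in mitochondrial DNA, and some subunits of complex IV have tissue isoforms in striated muscle, brown fat, lung or testis. In tissues these genes usually follow the amount of mitochondria, which is high in muscle and brown fat and lower in epidermis and dermis.

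Many nuclear subunit genes share binding sequences for the transcription factors NRF1, GABPA and YY1 close to their start sites. These sequences are shown because the choice of members by symbol did not use them. Promoters of RefSeq (GRCm38.p6, 300 bases, from 250 before to 50 after the start) were matched to 69 of the 85 members. The letters GCGCA, any base and GCGC, a core of the NRF1 sequence, were found on either strand in 17 of the 69 members (24.6%) and in 5.19% of all 27025 genes with a promoter. One site from each of complexes I, II and IV and the ATP synthase is shown 5′ to 3′ with the NRF1 letters in capitals, at chr4:123718265-123718294, chr13:74350276-74350305, chr5:115349101-115349130 and chr5:108434430-108434459, all on the minus strand.
*Ndufs5*: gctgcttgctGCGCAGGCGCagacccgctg
*Sdha*: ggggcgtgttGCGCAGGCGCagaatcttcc
*Cox6a1*: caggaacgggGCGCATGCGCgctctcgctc
*Atp5k*: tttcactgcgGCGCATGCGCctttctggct

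The letters CCGGAAG of GABPA and related ETS factors were found in 16 of the 69 members (23.2%, against 9.93% of all genes). AAGATGGC of YY1 was found in 10 (14.5%, against 3.19%). These 3 motifs were searched on both strands, and 37 of the 69 members (53.6%) held at least 1 of them, against 16.4% of all genes. GGAATG, the core of the binding sequence of TEAD factors that YAP acts through, was found in 7 of the 69 (10.1%) and in 16.6% of all genes. The search covered the 300 bases of each promoter, so TEAD sites farther away were not counted. CAGCTG, an E-box that myogenic factors bind, and TATAAA were each found in 6 members (8.70%), against 18.3% and 15.7% of all genes. *Cox8b*, a muscle and brown fat isoform, held both of the latter, and its ubiquitous partner *Cox8a* held CCGGAAG. The windows at chr7:140900423-140900452 and chr19:7217602-7217631, both on the minus strand, are shown for contrast with TATAAA and CAGCTG, or the reverse complement of CCGGAAG, in capitals.
*Cox8b*: ccaccccagcTATAAAaagcccCAGCTGgc
*Cox8a*: ttccgaaataCTTCCGGctcgggcgtccgg
The capitals of *Cox8b* lie just after its RefSeq start, and those of *Cox8a* at its start. The median GC content was 58.0% in promoters of members and 52.7% in all promoters. A match of letters is a description of the sequence and not a site bound in skin.

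Total counts per library ranged from 11225705 to 19505036. Of all 15102 genes tested with edgeR's quasi-likelihood test and Benjamini-Hochberg adjustment, 288 (1.91%) passed an adjusted p of 0.05, 218 (1.44%) with the higher level and 70 (0.464%) with the lower level in TG skin. TG2 stood apart from the other 5 libraries on the first axis of a multidimensional scaling plot. The summed level of 7 basal keratinocyte markers was 3593 to 4358 CPM (counts scaled to library size) in WT and 5903 to 7540 CPM in TG skin, with 1 of 7 called higher. Genes of the hair shaft and inner root sheath (12 with a row) summed to 13711 to 17328 CPM in WT and 1488 to 9135 CPM in TG skin. Of these, 0 of 12 were called at an adjusted p of 0.05. Without adjustment, 11 of 12 were lower at a p under 0.05, beside 13.0% of all genes. In bulk skin, fewer cells of a type and less RNA per cell cannot be told apart.

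Respiratory chain transcripts were nearly level between the genotypes. *Ndufa4l2*, which encodes a hypoxia-inducible homologue of the complex IV subunit Ndufa4, rose 2.21-fold and was the only member called, so that 1 of 84 members was called higher (1.44% of all genes) and 0 of 84 lower (0.464% of all genes). The median log2 fold change of the 84 members (YAP2-5SA-∆C minus wild type) was -0.10, beside -0.01 over all tested genes. The value was below 0 for 68 of 84 members (81.0%), beside 52.4% of all tested genes, but for 42 of 84 without WT2 and 53 of 84 without TG2. At an unadjusted p under 0.05, 2 members were higher (*Ndufa4l2* and *Ndufa4*) and 3 were lower (*Ndufs5*, *Ndufb3* and *Sdhb*), whereas 13.3% of all genes were higher and 13.0% lower at that threshold. Values of the groups did not overlap for 3 members that were higher and 4 that were lower, beside 15.5% and 18.2% of all genes.

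The design resolved small differences for most members. The median standard error of a member's log2 fold change was 0.10, and the 95% interval lay within 0.5 of 0 on the log2 scale for 73 of 84 members (86.9%), beside 55.9% of all tested genes. The plot of log2 fold changes by complex shows these intervals. The widest intervals were those of *Cox6a2*, *Cox7a1* and *Cox8b*, the muscle and brown fat isoforms.

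**Figure D1:**
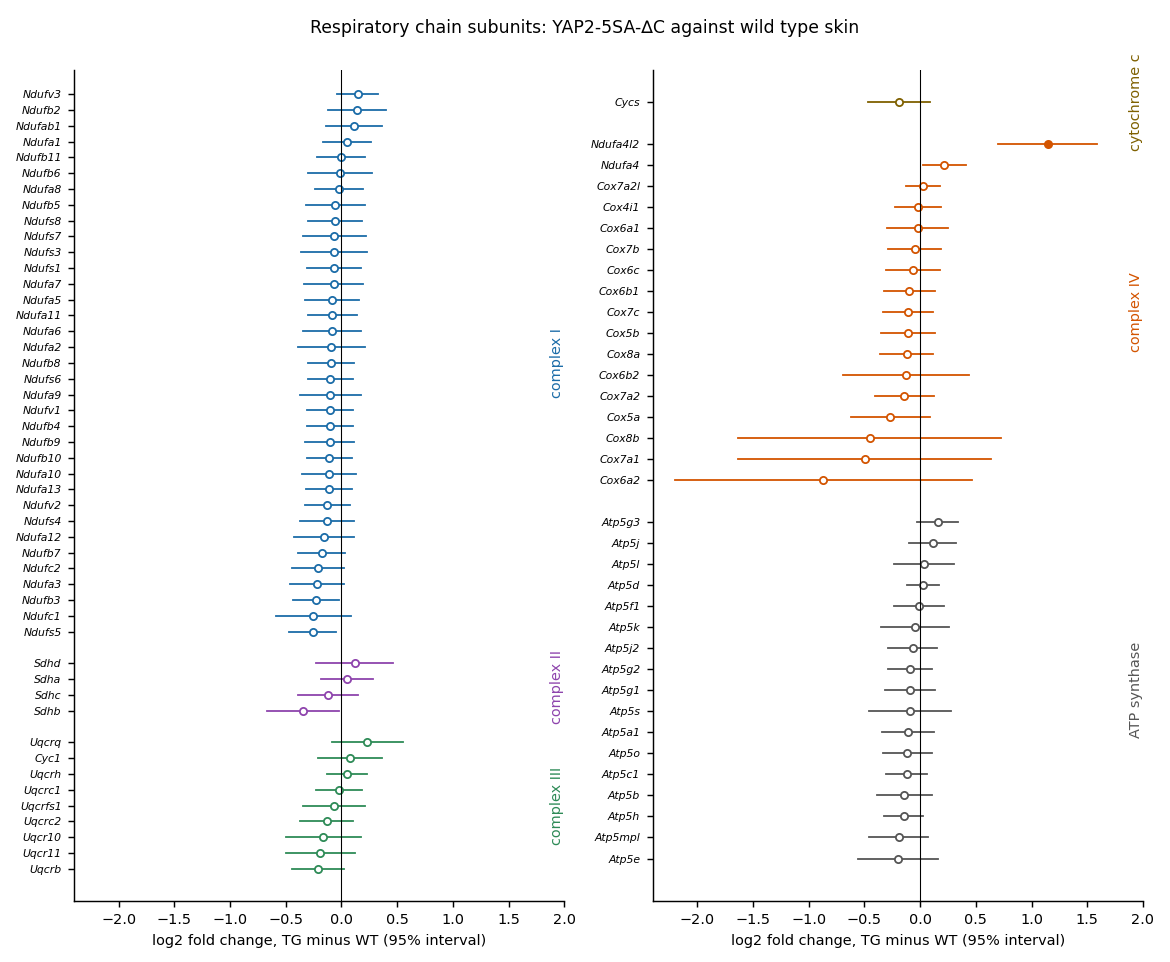
The log2 fold change of 83 of the 84 tested subunits (x axis, YAP2-5SA-∆C minus wild type, n = 3 mice per group) is shown by complex, with bars for the 95% interval and a filled point for an adjusted p under 0.05. *Ndufa4l2* at 1.14 is the only filled point, and 67 of the 83 points lie to the left of 0.

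The size of the slight shift of the median depended on single mice. The median deviation of the 84 members from the mean of the 6 libraries (log2 CPM) was -0.08 in WT1, 0.21 in WT2 and -0.0014 in WT3. It was -0.05 in TG1, -0.13 in TG2 and 0.07 in TG3. WT2 was thus the highest library, TG2 the lowest, and the groups overlapped. WT2 had the highest level of the 6 libraries for 66 of the 84 members, TG3 for 12, and TG2 had the lowest level for 46. Within its own group, WT2 was highest for 77 members and TG3 for 74. The median log2 fold change of the members was 0.00051 without WT2 and -0.03 without TG2, whereas it was -0.15 without WT1 and -0.15 without TG3.

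WT2 was the highest mouse in every complex. In complex I the median deviation was 0.22 in WT2 and -0.14 in TG2. In complex II it was 0.25 and -0.12, and in complex III 0.22 and -0.13. In complex IV it was 0.19 and -0.14, and in the ATP synthase 0.20 and -0.12. Without WT2 the median log2 fold change was 0.05 in complex II, 0.03 in complex III and -0.06 in cytochrome *c*. The complexes differed less from each other than the mice did, as the plot by library shows.

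**Figure D2:**
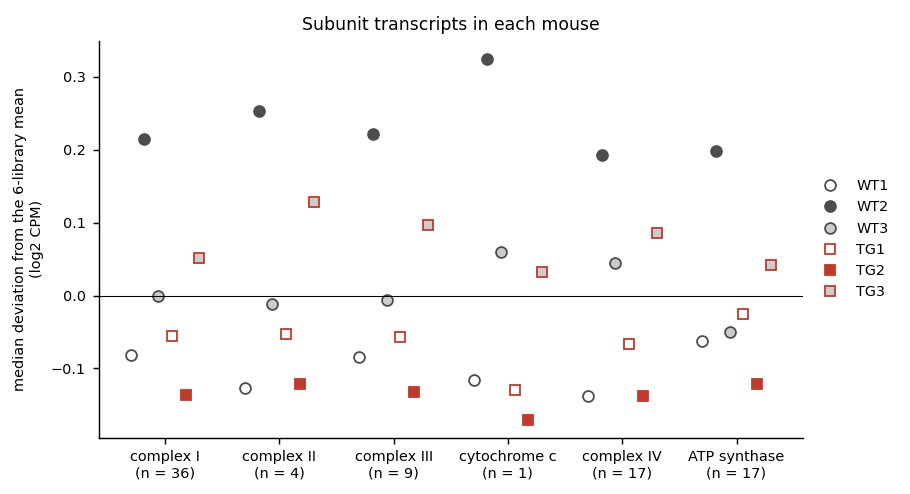
The median deviation of each complex from the mean of the 6 libraries (y axis, log2 CPM) is plotted for each mouse, with circles for wild type and squares for YAP2-5SA-∆C skin. WT2 is the highest point and TG2 the lowest or close to the lowest in each complex, and the WT and TG points overlap in each.

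Summed over the 84 tested members, the level was 5281, 6423 and 5602 CPM in wild type (mean 5769 ± 589, SD, n = 3) and 5398, 5128 and 5866 CPM in TG skin (mean 5464 ± 373, SD, n = 3). These transcripts made up 0.525% to 0.629% of all counts in WT and 0.512% to 0.590% in TG libraries. The ATP synthase gave the largest summed level, 2272 ± 222 CPM in WT and 2130 ± 141 CPM in TG skin. Complex I summed to 1440 ± 145 and 1353 ± 86.0 CPM, and complex IV to 1081 ± 115 and 1055 ± 70.5 CPM. Each difference was smaller than the standard deviation among wild type mice.

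The mice that ranked first in each group were those with the highest counts of *Ucp1*, the uncoupling protein that defines brown adipocytes. *Ucp1* had 14, 712 and 10 counts in WT1, WT2 and WT3 and 4, 4 and 1167 counts in TG1, TG2 and TG3. Only WT2 and TG3 thus had more than 14 counts of *Ucp1*. Of the other 5 brown adipocyte markers, *Kcnk3*, a potassium channel, was also highest in WT2 and TG3, with 31, 73 and 28 counts in WT and 30, 28 and 100 in TG skin. *Cidea*, a lipid droplet protein of brown fat, had 19.8, 18.9 and 7.90 CPM in WT and 24.6, 31.5 and 44.9 CPM in TG skin, so that WT2 was not the highest wild type mouse. *Prdm16*, a transcription regulator, had 3.57, 2.35 and 3.04 CPM in WT, and *Zic1*, a transcription factor, 10.8, 5.34 and 9.70 CPM, with WT2 lowest for both. *Dio2* was nearly level in WT at 11.9, 12.3 and 12.3 CPM. In TG skin *Dio2*, *Prdm16* and *Zic1* were highest in TG2. Only *Ucp1* and *Kcnk3* of the 6 markers thus had their highest value of each group in WT2 and TG3. All 6 markers summed to 36.5 to 80.0 CPM in WT and 60.9 to 157 CPM in TG skin. Of the 5 tested, 1 was called higher, beside 1.44% of all genes. This was *Dio2*, an enzyme that activates thyroid hormone (log2 fold change 0.85, adjusted p = 0.0401, edgeR quasi-likelihood test with Benjamini-Hochberg adjustment). *Ucp1* itself was under the filter on low counts and was not tested. Without WT2 and TG3 the quasi-likelihood test called 0 of 14730 genes, and so 0 members, with 2346 genes at an unadjusted p under 0.05, and the median log2 fold change of the members was -0.06. Other lists shared the order. The summed level of 9 adipocyte markers was 1426, 1756 and 1524 CPM in WT and 1242, 1605 and 1886 CPM in TG skin. The sums of the citric acid cycle and fatty acid oxidation genes were also highest in WT2 and TG3. That of the subunits encoded by mitochondrial DNA was highest in WT3 and TG3. The part of brown fat or other fat in the order of the mice was not tested.

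Complex I, the NADH dehydrogenase and entry point for electrons from NADH, gave no call among its 36 members. The values were below 0 for 32 of 36, with a median of -0.10 and a range of -0.26 to 0.15 on the log2 fold change scale. The median of complex I was -0.0025 without WT2 and -0.15 without WT1. *Ndufs1*, a large core subunit that carries iron-sulphur clusters, had 84.7, 111 and 94.9 CPM in WT and 94.0, 88.8 and 95.2 CPM in TG skin. *Ndufv1*, which binds NADH, had 69.3, 77.0 and 70.1 CPM in WT and 66.7, 60.5 and 74.3 CPM in TG skin. For both, the values of the groups overlapped.

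In 4 accessory subunits of complex I every TG value was below every wild type value, beside 18.2% of all genes with such a pattern. *Ndufs5* (chr4:123712710-123718202, minus strand, GRCm38), a subunit of the intermembrane space side, had 21.2, 24.9 and 22.9 CPM in WT and 18.7, 18.5 and 20.3 CPM in TG skin. Its log2 fold change was -0.26 (SE 0.09) with an adjusted p of 0.125 in edgeR's quasi-likelihood test, so that it did not pass. *Ndufb3*, an accessory subunit of the membrane arm, had 25.1, 28.3 and 24.4 CPM in WT and 20.6, 22.6 and 23.2 CPM in TG skin. Its difference of -0.23 on the log2 scale did not pass either. The other two, *Ndufb7* and *Ndufc2*, had log2 fold changes of -0.18 and -0.21.

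At the other end, *Ndufv3*, a small accessory subunit beside the NADH site, had the highest log2 fold change of complex I at 0.15. Its levels were 33.1, 38.4 and 33.4 CPM in WT and 38.0, 38.0 and 39.9 CPM in TG skin, and WT2 lay among the TG values. *Ndufb2* followed at 0.14, and *Ndufc1* was the second lowest at -0.26, all 3 without a call.

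Complex II, the succinate dehydrogenase that is also part of the citric acid cycle, is built from 4 nuclear subunits, and none was called. *Sdhb* (chr4:140961203-140979193, plus strand), the iron-sulphur subunit, had 69.7, 88.9 and 78.0 CPM in WT and 62.6, 51.7 and 72.0 CPM in TG skin. Only TG3 reached the wild type range. The log2 fold change was -0.34 (SE 0.14, 95% interval -0.67 to -0.02), with an adjusted p of 0.169 in edgeR's quasi-likelihood test. It was -0.21 without TG2 and -0.46 without TG3. *Sdha*, the flavoprotein that oxidises succinate, had 124, 143 and 125 CPM in WT and 129, 124 and 153 CPM in TG skin, with values that overlapped. The membrane anchors *Sdhc* and *Sdhd* had log2 fold changes of -0.12 and 0.12. With single mice left out these were -0.22 to -0.01 and 0.02 to 0.29.

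Complex III, the cytochrome *bc1* complex, gave no call among 9 members, and 6 values were below 0. *Uqcrb*, which binds ubiquinone, had 75.0, 95.7 and 94.9 CPM in WT and 76.0, 74.9 and 78.8 CPM in TG skin. WT2 and WT3 lay above all TG values, and WT1 lay among them. *Uqcr11*, a small accessory subunit, had the next lowest log2 fold change of -0.19, which was -0.04 without WT2 and -0.27 without WT3. Its levels were 47.9, 61.9 and 44.8 CPM in WT and 42.6, 43.8 and 49.4 CPM in TG skin, and the groups overlapped. *Uqcrfs1*, the Rieske iron-sulphur protein, had a log2 fold change of -0.07, *Uqcrc1*, a core subunit, of -0.02, and *Cyc1*, cytochrome *c1*, of 0.08. *Uqcrq*, a further accessory subunit, was highest at 0.23, with 22.5 CPM in TG3 and 14.5 to 17.8 CPM in the other 5 mice.

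*Cycs*, cytochrome *c*, the soluble carrier between complexes III and IV, had 67.4, 91.6 and 76.2 CPM in WT and 66.8, 65.0 and 74.8 CPM in TG skin. The groups overlapped, and the log2 fold change was -0.19 (SE 0.12) without a call.

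Complex IV, the cytochrome *c* oxidase, held the member that was called and the members with the largest spread between mice. Of 17 tested members, 14 values were below 0, with a median of -0.11 (0.0048 without WT2 and -0.17 without TG3). *Cox4i1*, the ubiquitous form of the largest nuclear subunit, had 127, 148 and 124 CPM in WT and 126, 128 and 142 CPM in TG skin, with a log2 fold change of -0.02. *Cox5a*, a matrix-side subunit, had 36.8, 52.1 and 46.7 CPM in WT and 36.1, 33.2 and 43.4 CPM in TG skin. WT1 lay among the TG values of *Cox5a*, and its log2 fold change of -0.27 did not pass.

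*Ndufa4l2* (ENSMUSG00000040280, chr10:127514967-127517154, plus strand, GRCm38) had 369, 342 and 183 counts in WT and 540, 879 and 662 counts in TG skin. Scaled by library, these were 20.3, 17.9 and 17.4 CPM in wild type (18.5 ± 1.54, SD, n = 3) and 30.0, 51.7 and 41.3 CPM in TG skin (41.0 ± 10.8, SD, n = 3). All TG mice were above all wild type mice, and TG1 was the lowest of the 3. The log2 fold change was 1.14 (SE 0.19, 95% interval 0.70 to 1.59), with an adjusted p of 0.0437 in edgeR's quasi-likelihood test with Benjamini-Hochberg adjustment. The exons share 32 bases (2.92% of their length) with *Shmt2* on the other strand, and the strand setting of the counting is not given in the sources used here.

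The call of *Ndufa4l2* lay close to the threshold, whereas its direction and size held in each alternative run. With voom, which called 1.23% of all genes higher, the adjusted p was 0.0541. In the quasi-likelihood test the adjusted p was 0.0665 without WT1, 0.186 without WT2, 0.144 without WT3 and 0.0906 without TG3, and it was 0.0369 without TG1 and 0.0186 without TG2. These fits also differed in their calls over all genes, with 0 without WT2, WT3 or TG3, 142 without WT1, 86 without TG1 and 816 without TG2, and with 2725 to 3841 genes at an unadjusted p under 0.05. Its log2 fold change was between 0.96 and 1.35 over these 6 fits. The likelihood-ratio test of edgeR and the Wald test of DESeq2 gave adjusted p-values of 4.0e-06 and 8.3e-07, and called 5.52% and 6.35% of all genes higher.

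Ndufa4l2 is known as a target of hypoxia-inducible factor and is also found in pericytes, the cells around small vessels. For these cells, values are given beside the result, with lists that were chosen after its value was seen. The summed level of 7 pericyte genes was 276.6 to 283.2 CPM in WT and 285.1 to 351.8 CPM in TG skin, with 0 of 6 tested genes called. At an unadjusted p under 0.05, 2 of the 6 were higher, beside 13.3% of all genes. These were *Pdgfrb*, the receptor for platelet-derived growth factor B (log2 fold change 0.39, adjusted p = 0.0875, edgeR quasi-likelihood test), whose groups did not overlap, and *Rgs5*, a regulator of G protein signalling with 665 to 1441 counts (0.33, adjusted p = 0.13). Of the 6 tested genes, 4 had log2 fold changes above 0 and 2 below, with a median of 0.16. Those below 0 were *Cspg4* at -0.07 and *Abcc9* at -0.05. *Higd1b*, also a pericyte gene, had 2 to 11 counts and was not tested. Endothelial genes (4 in the list) summed to 86.6 to 95.1 CPM in WT and 100.5 to 122.4 CPM in TG skin, with 0 of 4 called. Of these 4, 2 were higher at an unadjusted p under 0.05, beside 13.3% of all genes. Hypoxia-inducible genes (10 in the list) summed to 456.4 to 604.3 CPM in WT and 611.6 to 760.5 CPM in TG skin. In that list 1 of 10 was called higher, beside 1.44% of all genes. This was *Slc2a1*, a glucose transporter (log2 fold change 1.12, adjusted p = 0.0194, edgeR quasi-likelihood test with Benjamini-Hochberg adjustment). Without adjustment, 4 of 10 were higher at a p under 0.05, beside 13.3% of all genes. The median of the list was 0.37, with 8 log2 fold changes above 0 and 2 below. The part of these cells and genes in the rise of *Ndufa4l2* was not tested.

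*Ndufa4* (chr6:11900292-11907497, minus strand), the ubiquitous partner, had 68.7, 81.6 and 70.7 CPM in WT and 82.9, 83.7 and 90.4 CPM in TG skin. The groups did not overlap, but WT2 and TG1 lay close to each other. The log2 fold change was 0.22 (SE 0.08) with an adjusted p of 0.152 in edgeR's quasi-likelihood test, which did not pass. Per kilobase of merged exons, *Ndufa4l2* made up 27.1%, 21.7% and 23.7% of the pair in WT and 31.4%, 43.8% and 36.6% in TG skin. The shares did not overlap, and the exact permutation test (two-sided) gave p = 0.1, the smallest that 3 against 3 mice allow, or 0.6 after Benjamini-Hochberg adjustment over the 6 isoform pairs. Per kilobase of the principal transcript the share of *Ndufa4l2* was 12.5% to 16.2% in WT and 19.1% to 28.8% in TG skin, so the level of the share depends on the length that is taken.

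*Cox4i2*, the lung isoform of *Cox4i1* that oxygen regulates, stayed near the limit of detection. It had 0.660, 1.20 and 0.571 CPM in WT and 0.890, 0.824 and 1.37 CPM in TG skin, and was not tested. It made up 0.894% to 1.57% of the pair per kilobase in WT and 1.25% to 1.87% in TG skin, with overlapping shares (exact permutation p = 0.3, adjusted 0.6), or 0.476% to 0.839% and 0.668% to 1.00% per kilobase of the principal transcript. WT2 and TG3 were again the highest mouse of each group.

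**Figure D3:**
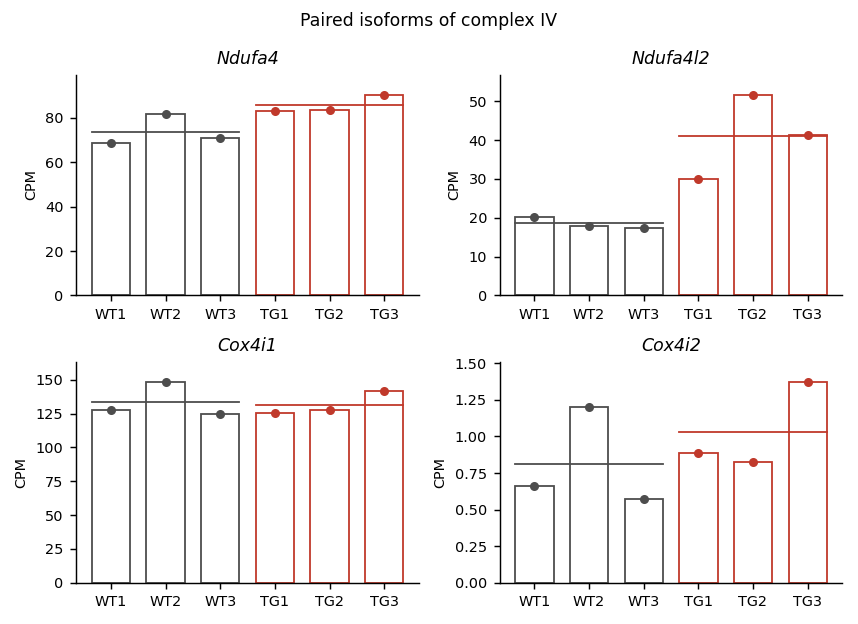
Levels in CPM (y axes, starting at 0) of *Ndufa4*, *Ndufa4l2*, *Cox4i1* and *Cox4i2* are shown for each mouse as a bar with a point, with a horizontal line for the mean of each group of 3. *Ndufa4l2* is at 17.4 to 20.3 CPM in WT and 30.0 to 51.7 CPM in TG skin, while the values of *Cox4i1* and *Cox4i2* overlap.

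*Cox6a2*, *Cox7a1* and *Cox8b* are the isoforms of heart and skeletal muscle, and *Cox7a1* and *Cox8b* are also abundant in brown fat. *Cox6a2* had 6.05, 29.5 and 23.1 CPM in WT and 16.0, 9.47 and 6.55 CPM in TG skin. *Cox7a1* had 3.13, 13.6 and 9.04 CPM in WT and 6.34, 4.41 and 7.49 CPM in TG skin. *Cox8b* had 4.29, 17.6 and 11.1 CPM in WT and 8.12, 4.94 and 11.0 CPM in TG skin. WT2 was highest and WT1 lowest of the 6 mice for all 3 genes, so that the groups overlapped throughout.

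The 3 muscle isoforms varied 4.87-, 4.34- and 4.10-fold between the highest and the lowest mouse, whereas their ubiquitous partners *Cox6a1*, *Cox7a2* and *Cox8a* varied 1.25-, 1.39- and 1.29-fold. Their log2 fold changes were -0.87 (SE 0.57), -0.50 (SE 0.48) and -0.45 (SE 0.50), none of which passed. Without WT1 the likelihood-ratio test called all 3 lower, as it did 5.69% of all genes, and the quasi-likelihood test called none of them. Without WT2 the log2 fold changes were -0.43 for *Cox6a2*, 0.03 for *Cox7a1* and 0.08 for *Cox8b*. Without WT2 and TG3 they were -0.18, -0.15 and -0.22. *Cox6a2* exons share 70 bases (10.3% of their length) with *Itgad* on the other strand.

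The level of skeletal muscle genes differed between the biopsies in a like order. The summed level of 16 skeletal muscle genes was 4394, 19682 and 16324 CPM in WT and 10534, 7655 and 4360 CPM in TG skin. None of the 16 genes was called, and 14 of 16 log2 fold changes were below 0, with a median of -1.05. WT1 and TG3 had the lowest muscle signal, and TG3 had the lowest *Cox6a2* of its group but the highest *Cox7a1* and *Cox8b*. TG3 was the library with 1167 counts of *Ucp1*. The part of muscle and brown fat in the levels of the 3 isoforms was not tested.

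**Figure D4:**
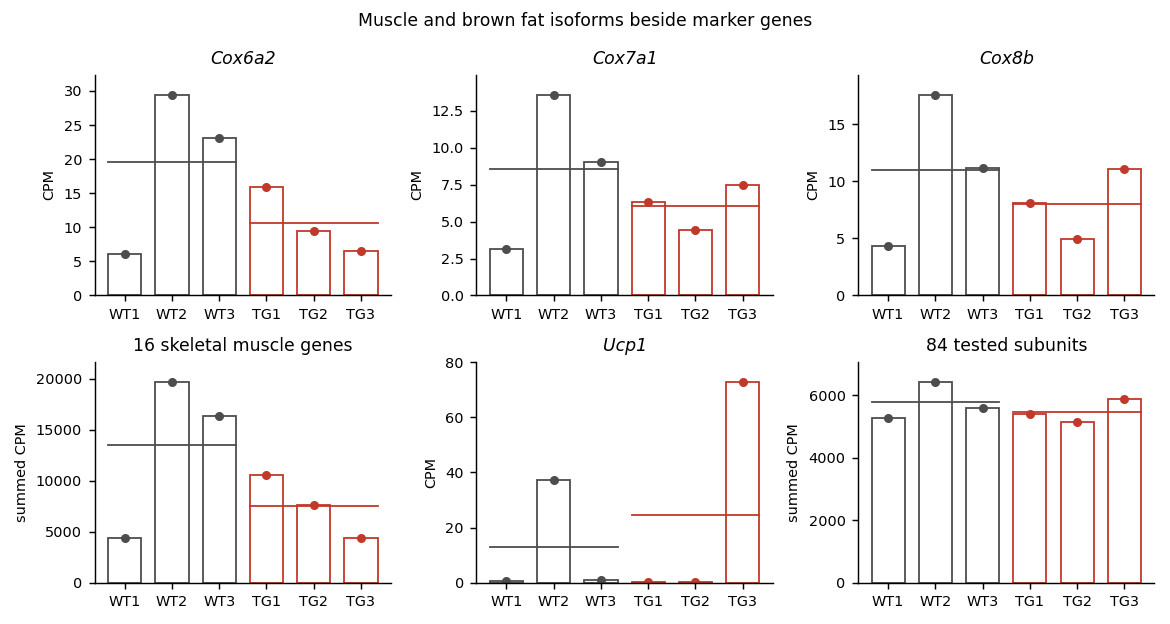
Levels (y axes in CPM, starting at 0) of *Cox6a2*, *Cox7a1* and *Cox8b* are shown for each mouse beside the summed level of 16 skeletal muscle genes, *Ucp1* and the summed level of the 84 tested subunits, with a line for the mean of each group of 3. *Cox6a2* follows the muscle genes with its highest value in WT2, and *Ucp1* stands out in WT2 and TG3.

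As a share of each isoform pair per kilobase, *Cox6a2* made up 7.17%, 24.3% and 23.3% in WT and 17.6%, 11.3% and 6.54% in TG skin (exact permutation p = 0.3, adjusted 0.6). *Cox7a1* made up 9.47% to 26.8% in WT and 14.2% to 19.5% in TG skin, and *Cox8b* 8.35% to 24.6% and 10.4% to 17.7%. Both gave an exact permutation p of 0.7 (adjusted 0.84). *Cox6b2*, the testis isoform, made up 0.646% to 1.12% of its pair with *Cox6b1* in the 6 mice (exact permutation p = 0.9, adjusted 0.9), or 1.06% to 1.83% per kilobase of the principal transcript. The ubiquitous form was thus the larger share of each of these pairs in every mouse.

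The ATP synthase, which turns the proton gradient into ATP, gave no call among 17 members. Values were below 0 for 13 of 17, with a median of -0.09 (-0.01 without WT2). *Atp5b*, the catalytic beta subunit, had 633, 779 and 686 CPM in WT and 642, 574 and 687 CPM in TG skin. *Atp5a1*, the alpha subunit, had 510, 620 and 537 CPM in WT and 524, 470 and 549 CPM in TG skin. The groups overlapped for both, with log2 fold changes of -0.14 (SE 0.10) and -0.11 (SE 0.10).

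The genes *Atp5g1*, *Atp5g2* and *Atp5g3* encode the same mature *c* subunit of the rotor ring. *Atp5g3* had the highest log2 fold change of the ATP synthase at 0.16, with 64.6, 65.0 and 57.8 CPM in WT and 65.5, 68.4 and 75.1 CPM in TG skin. Its groups did not overlap, with WT2 and TG1 close together, and it was not called. *Atp5g1* and *Atp5g2* were both at -0.09. *Atp5j*, which encodes coupling factor 6 of the stalk, was second highest at 0.12 and shares 397 exonic bases with *Gabpa* on the other strand. The lowest were *Atp5e*, the epsilon subunit, at -0.20 and *Atp5mpl*, a small membrane subunit, at -0.19. These values were -0.04 and -0.10 without WT2, and -0.27 and -0.29 without TG3.

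The levels of subunits differed far more between genes than between genotypes. Per kilobase of merged exons, *Atp5a1* and *Atp5b* were highest in wild type at 177 and 165 CPM per kb, and *Cox6b2* was lowest of the tested members at 1.40. In complex I the highest was *Ndufb9* (67.6 CPM per kb) and in complex III *Uqcrb* (101 CPM per kb). In complex IV it was *Cox6b1* (161 CPM per kb), and in complex II *Sdhb* (35.2 CPM per kb). The order depends on the length that is taken, since many members carry long minor transcripts. Per kilobase of the principal transcript, *Atp5b* (365) was above *Atp5a1* (225), and *Ndufb2* (2.13) was lowest. The longest principal transcript was taken, which has 4371 bases for *Ndufb2*, so this order depends on length too.

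**Figure D5:**
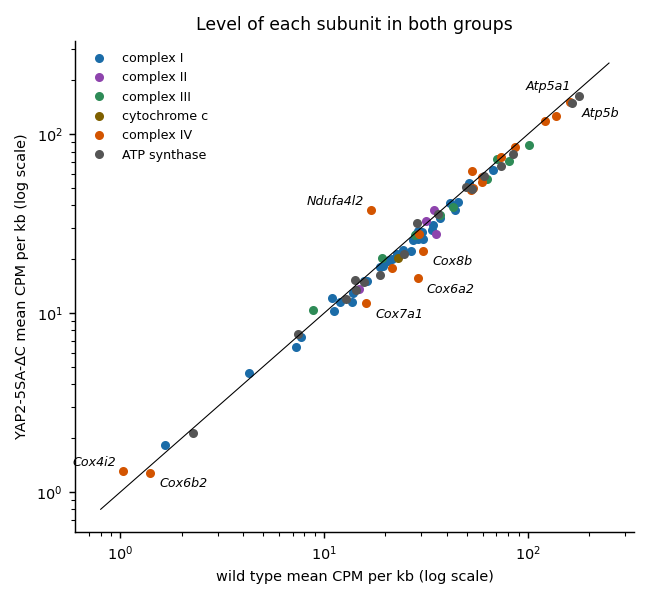
The mean level of 84 of the 85 subunits in TG skin (y axis) is plotted against wild type (x axis), both in CPM per kb of merged exons on a log scale, with the line of equal levels. Points follow the line from *Cox4i2* at 1.03 to *Atp5a1* at 177 CPM per kb in wild type, with *Ndufa4l2* above it and *Cox6a2*, *Cox7a1* and *Cox8b* below it.

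Between mice of 1 group, the median spread of the members was larger than that of all tested genes in WT and smaller in TG skin. The median coefficient of variation of the members was 10.8% in WT and 7.69% in TG skin, beside 8.09% and 9.29% over all tested genes. *Cox6a2* was the most variable member in both groups, at 62.0% and 45.2%.

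The 13 subunits encoded by mitochondrial DNA complete complexes I, III and IV and the ATP synthase, and 12 of them had a row. None was called, and their median log2 fold change was 0.07. Their summed level was 20678 to 27707 CPM in WT and 25018 to 26375 CPM in TG skin. WT1 was the lowest library, and the other 5 lay close together.

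Other genes of mitochondria gave no call either. Of 48 assembly factors, which build the complexes without being part of them, 32 values were below 0, with a median of -0.08. Of 76 mitochondrial ribosomal proteins, 61 were below 0, with a median of -0.08. At an unadjusted p under 0.05, 9 of the ribosomal proteins were lower and 2 higher, beside 13.0% and 13.3% of all genes. The 17 genes of pyruvate dehydrogenase and the citric acid cycle had a median of 0.0061 and the 14 tested genes of fatty acid oxidation one of 0.00057. The 20 carriers and import proteins had a median of -0.09. The 18 regulators of mitochondrial biogenesis, such as *Ppargc1a*, *Nrf1*, *Gabpa*, *Yy1* and *Tfam*, had a median of -0.02 and a range of -0.53 to 0.45.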

How the data were processed

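RNA-Seq libraries of 75-base paired reads were made from whole skin of 6 mice. Per Ensembl gene the matrix holds raw read counts, which the authors obtained by mapping to GRCm38 with TopHat2 (2.0.12 in the submitters' processing notes) and Bowtie2 2.1.0 and by assigning uniquely mapped reads with HTSeq-count. The annotation release and strand setting are not given in the sources used here. Values of overlapping or antisense genes are therefore uncertain, and unique mapping may take reads from members with processed pseudogenes.

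Rows that reached 1 CPM in 3 or more samples were scaled by TMM, and the groups were compared with the quasi-likelihood test of edgeR 4.0.16 in R 4.3.3. P-values were adjusted by Benjamini-Hochberg over 15102 genes with a threshold of 0.05. The standard error was the log2 fold change divided by the square root of F. CPM are TMM-scaled. Symbols, positions and exon lengths were taken from GENCODE M21, which lacks 558 identifiers of the matrix. Alternatives were other scalings and filters, the likelihood-ratio test, voom (limma 3.58.1), DESeq2 1.42.0, the replicate number as a block and leaving out mice. The scripts were tested on simulated data.

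Named subunits were those called, the 2 highest and 2 lowest log2 fold changes of each complex, core subunits, isoform pairs and members under the filter. The single values of 1 member are not reported here, and it was left out of the plots by gene, but it enters the counts, sums and medians. *Ndufb7*, *Ndufc2*, *Atp5g1*, *Atp5g2*, *Ndufb3* and the subunits with the highest level per kilobase were named after their values were seen. Members and lists were chosen with earlier results of these data known. The pericyte and hypoxia-inducible lists, the fit without WT2 and TG3 and the likelihood-ratio fits without single mice were added after seeing the data.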

Additional observations from a re-analysis of the deposited data

How the results depend on the processing

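The count of members called higher, 1 of 84 in the quasi-likelihood test, was also 1 with RLE or upper-quartile scaling, without the low-count filter, with at least 10 counts in every sample, with the likelihood-ratio test and with DESeq2. It was 0 with voom, with the replicate block and without WT2 and TG3, and 0 to 1 when single mice were left out. The count of members called lower was 0 in these settings. It was 3 only in the likelihood-ratio test without WT1 (*Cox6a2*, *Cox7a1* and *Cox8b*). Over all genes the calls were 288 in the quasi-likelihood test, 357 with RLE, 416 with upper-quartile scaling, 497 without the filter, 249 with voom, 1568 with the likelihood-ratio test and 1590 with DESeq2. With single mice left out they were 0 to 816 in the quasi-likelihood test and 617 to 1694 in the likelihood-ratio test. With the replicate block 0 of 15102 genes were called, 2949 had an unadjusted p under 0.05, and the members' median log2 fold change was -0.09. The adjusted p of *Ndufa4l2* was then 0.169. Deviations of the same-numbered mice correlated at -0.33, -0.23 and -0.05. They were taken from the mean of each group of 3, so these values cannot decide whether the numbers pair the mice. The median log2 fold change of the members was -0.08 with RLE, -0.07 with upper-quartile scaling and -0.15 to 0.00051 when single mice were left out. With upper-quartile scaling *Cox4i1* turned to 0.0022 and *Cox6a1* to 0.0011, and without WT2 and TG3 *Cox4i1* turned to 0.010 and *Ndufs1* to 0.026. Leaving out single mice, or WT2 and TG3 together, turned the sign of uncalled members, with log2 fold changes of -0.073 to 0.064 for *Cox4i1*, -0.14 to 0.069 for *Cox6a1*, -0.42 to 0.022 for *Cox6b2*, -0.90 to 0.031 for *Cox7a1*, -0.84 to 0.083 for *Cox8b*, -0.020 to 0.17 for *Cyc1*, -0.15 to 0.045 for *Ndufs1*, -0.043 to 0.13 for *Sdha*, -0.090 to 0.058 for *Uqcrc1* and -0.15 to 0.051 for *Uqcrfs1*. The cause was not tested. Counts of *Cox4i2* were too low for a test.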
